A study of Mus musculus with 4 samples.

Results

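The Hox genes were examined in chromatin accessibility data from mouse embryonic hearts with and without SMYD1, an enzyme of striated muscle that methylates histones. The set comprised 38 Hox genes, taken by name from the GENCODE M21 annotation of mm10, out of 21938 protein-coding genes and 55413 genes of all types. They fall into 4 clusters with 10 genes in Hoxa, 10 in Hoxb, 9 in Hoxc and 9 in Hoxd. ATAC-seq, in which Tn5 transposase cuts and tags open DNA, was performed on whole dissected hearts at E9.5. Wild-type (WT) hearts were compared with *Smyd1-KO* hearts, which are homozygous for a germline null allele bred from *Smyd1+/-* mice, with embryos of both sexes. Each genotype had 2 libraries, and each library came from a pool of 4 hearts and 40000 viable cells. The null allele is present in all cells and the whole heart was dissociated, so a change in the proportion of cell types and a change within cells cannot be told apart.

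The data consist of 2 lists of differential peaks called on the combined libraries of each genotype. A *Smyd1-KO*-enriched peak, called a gained peak here, was one whose tags in *Smyd1-KO* hearts were 2-fold or more those in WT hearts, and a WT-enriched peak was the reverse. There were 25745 gained and 106 WT-enriched peaks, each 149 bp wide. The score of a peak is the value deposited in column 5, read here as its pooled tag signal in the genotype where it was higher. The lists carry no header that states this. The step between scores is 0.5 for gained peaks but 0.1 for WT-enriched peaks, so they are not plain tag numbers and were not compared between the lists. The lists hold no value per library, so the spread between pools is unknown from them and no comparison of genotypes was tested. Beside each share stands its 95% interval (Clopper-Pearson, exact), which covers counting error only and is too narrow where neighboring Hox genes share a peak. The depth of each library is unknown from these lists. Open chromatin that differed less than 2-fold was not analysed here, so a Hox gene without a gained peak may be equally open or equally closed in both genotypes.

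Hox genes encode homeodomain transcription factors that give cells their position along the anterior to posterior axis of the embryo. Within a cluster the genes are ordered from anterior members with low paralog numbers at the 3′ end to posterior members with high numbers at the 5′ end, and they tend to be activated in that order. Retinoic acid signaling activates the anterior genes, Polycomb complexes keep silent genes compact, and trithorax proteins maintain active ones. In the heart, anterior Hox genes mark progenitors of the second heart field that contribute to the outflow tract and the atria.

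Gained peaks were found near a minority of Hox genes and no WT-enriched peak was found near any. Of the 38 Hox genes, 12 (31.6%, interval 17.5 to 48.7%) had a gained peak within 3 kb of an annotated transcription start site (TSS), whereas 51.2% of all protein-coding genes did. Within 1 kb, the count was 9 of 38 (23.7%, 11.4 to 40.2%) against 48.1% of protein-coding genes. Within 10 kb it was 25 of 38 (65.8%, 48.6 to 80.4%) against 59.6%. The Hox share thus lay below the background at the shorter distances, with the background outside the counting interval, and near it at 10 kb. The median distance from a Hox gene to its nearest gained peak was 6402 bp. The 3 kb limit separates *Hoxc8*, whose nearest peak was 2952 bp from a TSS, from *Hoxa9*, the next gene outside, at 4333 bp.

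**Figure D1:**
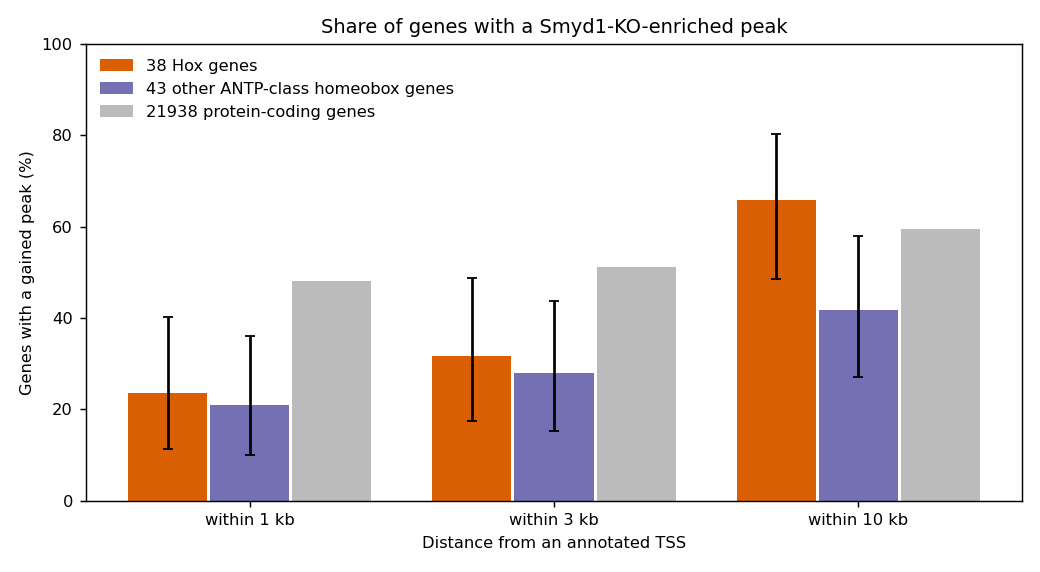
Share of genes (percent) with a *Smyd1-KO*-enriched peak within 1, 3 or 10 kb of an annotated TSS, for the 38 Hox genes, 43 other ANTP-class homeobox genes and all 21938 protein-coding genes; error bars are exact 95% intervals for counting error. The Hox share is 23.7% at 1 kb and 31.6% at 3 kb, below the grey bars, and 65.8% at 10 kb.

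Promoters rich in CpG were the ones that most often gained a peak, and 23 of the 38 Hox genes have a CpG-rich 5′ end. This class was defined as an observed to expected CpG ratio of at least 0.6 and a GC content of at least 50% in 500 bp to either side. Among all protein-coding genes of that class, 79.1% had a gained peak within 3 kb. Among the CpG-rich Hox genes, 6 of 23 (26.1%, 10.2 to 48.4%) had one, and among the other Hox genes 6 of 15 (40%, 16.3 to 67.7%) did. None of the 38 had more than 1 gained peak within 3 kb (0%, up to 9.25%), although 11.8% of protein-coding genes had at least 2. A second view used the RefSeq promoter windows of GRCm38.p6, which cover 300 bases around a start. In these, 22 Hox genes were matched with 24 windows, and the windows of *Hoxd9* and *Hoxd10* overlapped a gained peak, whereas 36.7% of the windows of protein-coding genes did.

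The gained peaks at Hox genes were weak. The 12 peaks within 3 kb of a Hox TSS had scores of 77 to 235 with a median of 136. The 12520 gained peaks within 3 kb of any protein-coding TSS had a median score of 395 and quartiles of 235 and 614.5. Each of the 12 Hox peaks therefore lay between percentiles 4.1 and 25.0 of promoter-proximal gained peaks. Against the entire list, whose median was 180.5, they lay between percentiles 23.0 and 57.4. When only peaks at or above the list median were counted, *Hoxb4* and *Hoxd10* were the Hox genes that kept a peak (2 of 38, 5.26%, 0.644 to 17.7%), against 45.4% of protein-coding genes. Gained peaks more than 10 kb from any TSS had a median score of 81 and an upper quartile of 130.5. The Hox median thus lay between the medians of the distal and the promoter classes. Single Hox peaks overlapped the distal range, and the lowest, at 77, was below the distal median.

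**Figure D2:**
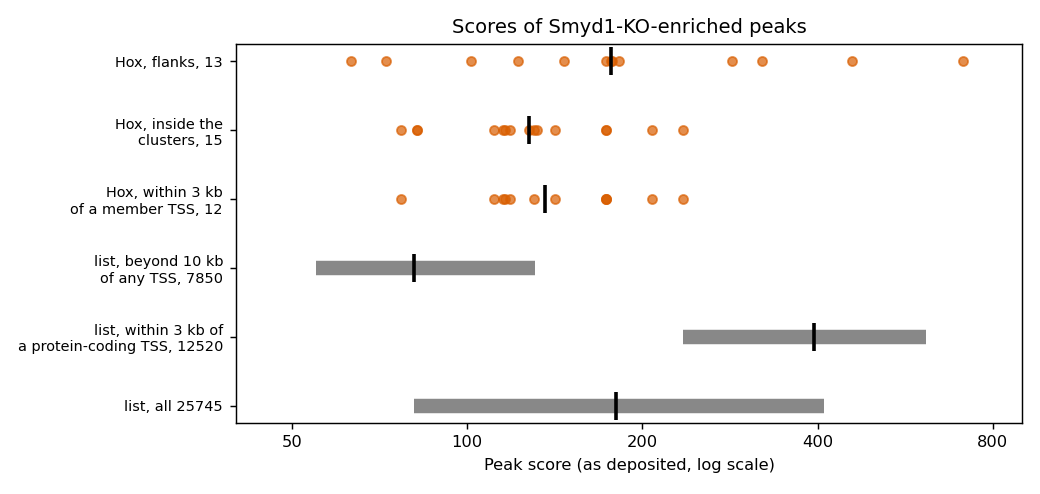
Peak scores as deposited (log axis) for Hox peaks (orange points, 1 per peak) and for the list of gained peaks (grey bars, interquartile range); black marks are medians. The 12 peaks within 3 kb of a Hox TSS lie at or below 235, the first quartile of promoter-proximal gained peaks.

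In the Hoxa cluster, 2 of 10 genes had a gained peak within 3 kb of a TSS. The stretch from *Hoxa2* to *Hoxa13* lies on the minus strand at chr6:52162417-52260880 and spans 98.5 kb. *Hoxa7*, which patterns the trunk, had a peak of score 173 over its 5′-most TSS, in a UTR (chr6:52221708-52221856). *Hoxa10*, a posterior gene of the lumbar region and the reproductive tract, had a peak of score 111 in a UTR, 204 bp downstream of a TSS (chr6:52240443-52240591). These were 2 of only 3 gained peaks inside the cluster, and the remaining one, the weakest with a score of 82 (chr6:52197344-52197492), lay in an intron of *Hoxa3*, 5591 bp from *Hoxa4*. Of the 8 genes without a peak within 3 kb, *Hoxa9* (4333 bp), *Hoxa11* (5204 bp), *Hoxa4* (5591 bp), *Hoxa2* (5840 bp), *Hoxa5* (7095 bp) and *Hoxa3* (8372 bp) had one within 10 kb. *Hoxa6* and *Hoxa13*, the posterior gene of digits and genital tubercle, were 11230 bp and 20211 bp from the nearest peak.

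In the Hoxb cluster, 3 of 10 genes had a peak, and all 3 belong to paralog groups 1 to 4. The cluster lies on the plus strand at chr11:96194316-96368256 and spans 174 kb. *Hoxb4*, which is known for its role in blood stem cell expansion, had the strongest peak inside any Hox cluster, with a score of 235 in a coding exon 552 bp downstream of its TSS (chr11:96318819-96318967). *Hoxb1*, a marker of the posterior second heart field and of a hindbrain segment, had a peak of score 173.5 between genes, 1690 bp upstream of its start. *Hoxb3* had a peak of score 115 at 54 bp upstream of an internal TSS, and the 5′ end of its gene model was 4359 bp from the nearest peak, that of *Hoxb4*. *Hoxb2* was 9634 bp from the nearest peak. The 6 remaining genes formed a run with rising distances, from *Hoxb5* (15307 bp), *Hoxb6* (19648 bp), *Hoxb7* (30104 bp) and *Hoxb8* (36094 bp) to *Hoxb9* (47296 bp) and *Hoxb13* (48458 bp). They share one stretch of 173 kb without any gained peak, a length reached by 13% of all gaps between neighboring gained peaks, whose median is 41 kb.

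The sequence of the *Hoxb1* upstream peak differs in composition from most other peaks at Hox genes, and it is shown beside the intergenic peaks of *Hoxc13* and *Hoxd12* and the upstream peak of *Hoxd10*. All sequences are from the plus strand of GRCm38.p6 (the same sequence as mm10), which is also the strand of these 4 genes, and CpG dinucleotides are in capitals. The *Hoxb1* peak holds 2 CpGs in its 149 bases with an observed to expected ratio of 0.248, the lowest of the 12, whereas the *Hoxd12* peak holds 17 with a ratio of 0.959.
*Hoxb1* upstream, chr11:96363914-96364062: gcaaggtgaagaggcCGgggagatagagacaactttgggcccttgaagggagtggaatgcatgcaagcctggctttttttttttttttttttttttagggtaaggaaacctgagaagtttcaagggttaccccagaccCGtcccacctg
*Hoxc13* upstream, chr15:102920796-102920944: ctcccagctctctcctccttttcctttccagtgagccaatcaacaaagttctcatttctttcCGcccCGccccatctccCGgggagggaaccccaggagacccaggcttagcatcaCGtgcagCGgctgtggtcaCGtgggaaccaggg
*Hoxd12* upstream, chr2:74673061-74673209: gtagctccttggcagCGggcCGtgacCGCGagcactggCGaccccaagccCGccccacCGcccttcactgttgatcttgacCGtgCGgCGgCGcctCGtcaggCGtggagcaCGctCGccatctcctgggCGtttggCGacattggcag
*Hoxd10* upstream, chr2:74691648-74691796: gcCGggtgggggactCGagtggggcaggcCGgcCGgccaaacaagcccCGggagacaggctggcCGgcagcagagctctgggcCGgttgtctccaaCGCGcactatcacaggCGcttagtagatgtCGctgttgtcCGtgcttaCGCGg
Across the 12 peaks the median GC content was 62.4% and the median CpG ratio 0.807, beside 65.8% and 0.77 for all gained peaks within 3 kb of a protein-coding TSS. The Hox peaks were thus similar in composition to other promoter-proximal gained peaks while having lower scores.

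In the Hoxc cluster, 3 of 9 genes had a peak, at each end and in the middle. The cluster lies on the plus strand at chr15:102921103-103036852 and spans 116 kb. *Hoxc13*, the most posterior gene, which is known for hair and nail formation, had a peak of score 173 at 159 bp upstream of its start. *Hoxc8*, a trunk gene, had a peak of score 141.5 at 2952 bp upstream (chr15:102987507-102987655), in an intron of a long *Hoxc5* model that begins near *Hoxc10*. *Hoxc4* had a peak of score 77, the lowest of the 12, in its coding exon 389 bp downstream of an internal TSS (chr15:103034784-103034932) and 15850 bp from the 5′ end of its gene model. The other peaks inside the cluster had scores of 132 between *Hoxc12* and *Hoxc11* and 127.5 in a coding exon of *Hoxc9*. *Hoxc9* (4786 bp) and *Hoxc12* (6455 bp) had a peak within 10 kb, whereas *Hoxc6* (10602 bp), *Hoxc11* (11067 bp), *Hoxc5* (14375 bp) and *Hoxc10* (15022 bp) did not.

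In the Hoxd cluster, 4 of 9 genes had a peak, and all 4 lie side by side except for *Hoxd11* between *Hoxd10* and *Hoxd12*. Of these, 3 belong to the posterior groups 9 to 13, and *Hoxd8* belongs to groups 1 to 8. The cluster lies on the plus strand at chr2:74668310-74765142 and spans 96.8 kb. *Hoxd10* had a peak of score 207.5 at 128 bp upstream of its start, in an intron of the transcript Gm28309. *Hoxd9* had a peak of score 118.5 over its TSS (chr2:74697640-74697788) and *Hoxd8* one of score 130 over an internal TSS (chr2:74705125-74705273). Both of these peaks overlap a UTR. *Hoxd12*, a posterior gene of the limb, had a peak of score 116 at 1804 bp upstream of its start. *Hoxd13* (4751 bp) and *Hoxd11* (6348 bp) had a peak within 10 kb, as had *Hoxd3* (6654 bp) and *Hoxd4* (6656 bp), whose longest models begin 2 bases apart. *Hoxd1*, the most anterior gene of the cluster, was 57707 bp from the nearest gained peak, the longest distance of the 38. *Hoxd1*, *Hoxd3* and *Hoxd4* lie in a stretch of 120 kb without a gained peak, a length reached by 20% of gaps in the list.

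**Figure D3:**
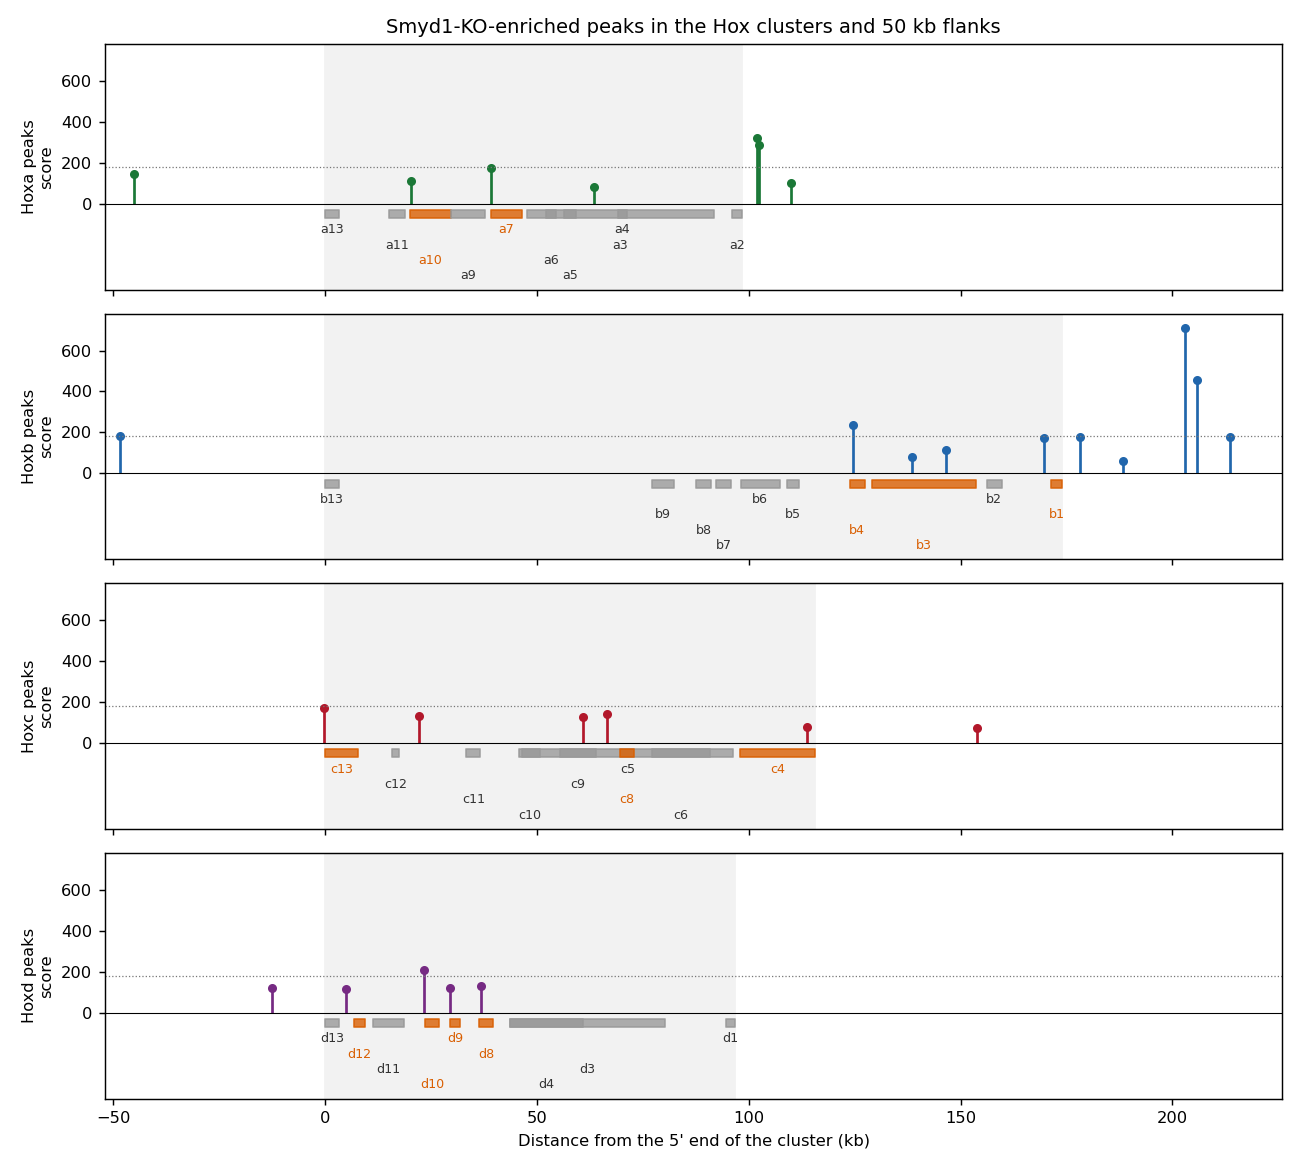
Gained peaks (stems, height as the deposited score) in the 4 clusters and 50 kb to either side, against distance in kb from the 5′ (posterior) end of each cluster; shading marks the cluster, bars below mark gene models, orange for genes with a peak within 3 kb, and the dotted line is the list median of 180.5. Inside the clusters only the peaks of *Hoxb4* (score 235) and *Hoxd10* (score 207.5) rise above the line.

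Between clusters, the counts of 2 of 10, 3 of 10, 3 of 9 and 4 of 9 could not be distinguished at this number of genes. The exact intervals were 2.52 to 55.6% for Hoxa, 6.67 to 65.2% for Hoxb, 7.49 to 70.1% for Hoxc and 13.7 to 78.8% for Hoxd, and each contains the shares of the other 3 and the 51.2% of all protein-coding genes. At 10 kb the shares were 8 of 10 for Hoxa, 4 of 10 for Hoxb, 5 of 9 for Hoxc and 8 of 9 for Hoxd, and each interval contains the 59.6% of all protein-coding genes. The median distance to the nearest peak was 4751 bp for Hoxd, 5716 bp for Hoxa, 6455 bp for Hoxc and 17478 bp for Hoxb. Most of the wide spacing in Hoxb comes from its 5′ side, as described above.

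**Figure D4:**
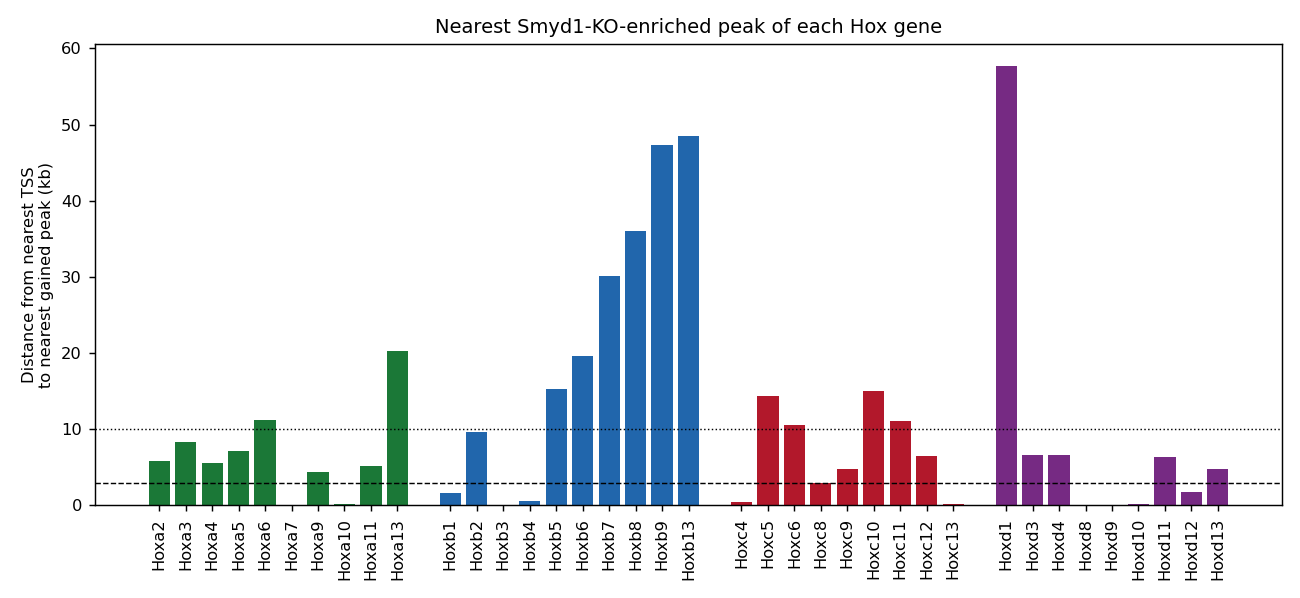
Distance in kb from the nearest TSS of each Hox gene to the nearest gained peak, ordered by cluster and paralog number; dashed and dotted lines mark 3 and 10 kb. In Hoxb the distance climbs from *Hoxb5* at 15.3 kb to *Hoxb13* at 48.5 kb, and *Hoxd1* stands highest at 57.7 kb.

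Anterior and posterior genes had gained peaks within 3 kb in nearly equal shares. In paralog groups 1 to 8, 7 of 22 genes (31.8%, 13.9 to 54.9%) had a peak, and in groups 9 to 13, 5 of 16 (31.2%, 11 to 58.7%) did, and both intervals contain the 51.2% of all protein-coding genes. Divided more finely, the counts were 4 of 11 in groups 1 to 4, 3 of 11 in groups 5 to 8 and 5 of 16 in groups 9 to 13. At 10 kb the counts were 10 of 11 (90.9%, 58.7 to 99.8%) in groups 1 to 4, 4 of 11 (36.4%, 10.9 to 69.2%) in groups 5 to 8 and 11 of 16 (68.8%, 41.3 to 89%) in groups 9 to 13. All 3 intervals contain the 59.6% of all protein-coding genes. The intervals of the central and the anterior groups overlap, and 4 of the 7 genes of groups 5 to 8 beyond 10 kb, *Hoxb5* to *Hoxb8*, share the long stretch in Hoxb. By cluster, the position of the genes with a peak differed. In Hoxb the counts were 3 of 8 in groups 1 to 8 and 0 of 2 in groups 9 to 13, whereas in Hoxd they were 1 of 4 and 3 of 5. These counts are too few for a statement about order along the clusters.

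Of the 13 paralog groups, 9 had at least 1 gene with a peak, and groups 2, 5, 6 and 11 had none. Each group holds 2 to 4 genes, and 51.2% of all protein-coding genes had such a peak. The number of groups with a peak at that share was not computed, so the counts by group are description only. In groups 4, 8 and 10, 2 members each had a peak, namely *Hoxb4* and *Hoxc4*, *Hoxc8* and *Hoxd8*, and *Hoxa10* and *Hoxd10*. In none of the groups did all members have one. Group 9, which is present in all 4 clusters, had a peak within 3 kb at *Hoxd9* but not at *Hoxa9*, *Hoxb9* or *Hoxc9*. Group 13 had one at *Hoxc13* but not at *Hoxa13*, *Hoxb13* or *Hoxd13*.

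**Figure D5:**
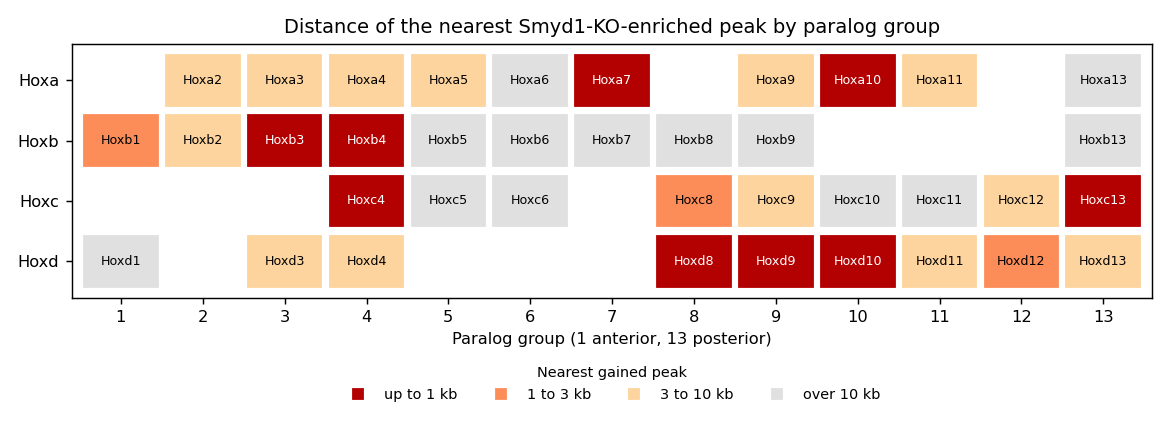
Distance class of the nearest gained peak for each of the 38 Hox genes, with clusters as rows and paralog groups 1 (anterior) to 13 (posterior) as columns. Genes with a peak within 3 kb (red and orange) are found in 9 of 13 groups, and no group is filled.

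Including 50 kb to either side, the 4 cluster windows held 28 gained peaks, 15 inside the clusters and 13 in the flanks. Their density was 3.09 per 100 kb inside and 3.25 per 100 kb in the flanks. Over the gap-free genome it was 0.972 per 100 kb, and over sequence within 10 kb of any TSS it was 1.8 per 100 kb, so peaks were not sparse by length in these gene-dense windows. Inside the clusters 4 peaks lay in a UTR, 3 in a coding exon, 5 in an intron and 3 between genes. Scores were 77 to 235 (median 127.5) inside and 63 to 710.5 (median 176.5) in the flanks. None of the 106 WT-enriched peaks lay in a window (0%, which allows a share of up to 3.42%), and within 3 kb of a TSS 0.0228% of protein-coding genes had one. The nearest WT-enriched peak was 1.54 Mb from the Hoxa genes and at least 30.8 Mb from the other clusters.

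The strongest gained peaks of the windows lay outside the Hox genes. In the 3′ flank of Hoxb, on the side of *Hoxb1*, an intergenic peak of score 710.5 lay 31065 bp from the *Hoxb1* TSS, and a second of score 458.5 lay 33830 bp from it. The former ranked at the 90.8th percentile of the list. The weakest peak of the windows, with a score of 63, lay in the same flank at chr11:96382689-96382837. Both strong peaks are printed because they exceed any peak inside a cluster and because each holds the core letters of MEIS and GATA sites. MEIS proteins are homeodomain partners of HOX proteins, and GATA factors are central to heart and blood development. In capitals are the MEIS letters, spelled TGACAG on either strand. The letters searched for GATA factors, likewise in capitals on either strand, were spelled AGATAA.
Hoxb 3′ flank, score 710.5, chr11:96397323-96397471: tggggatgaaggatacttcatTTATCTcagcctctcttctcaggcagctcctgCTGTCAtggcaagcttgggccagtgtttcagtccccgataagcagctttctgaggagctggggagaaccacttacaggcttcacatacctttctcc
Hoxb 3′ flank, score 458.5, chr11:96400088-96400236: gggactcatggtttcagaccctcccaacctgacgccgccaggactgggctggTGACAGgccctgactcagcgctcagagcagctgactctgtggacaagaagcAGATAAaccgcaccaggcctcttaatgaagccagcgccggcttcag
At the other clusters, the strongest flank peaks had scores of 320.5 at chr6:52158843-52158991 and 285 at chr6:52158322-52158470. They lie in an intron and in an exon of *Hotairm1*, a long non-coding RNA at the 3′ side of Hoxa, 5840 bp and 6361 bp from *Hoxa2*. In Hoxc the highest score was that of the *Hoxc13* peak and the lowest was 72.5, 40417 bp beyond *Hoxc4* (chr15:103074812-103074960). In Hoxd the highest was that of the *Hoxd10* peak and the lowest that of the *Hoxd12* peak. The single flank peak of Hoxd had a score of 122 and lay in a coding exon of *Evx2*, a homeobox gene beside *Hoxd13*.

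Motif letters were searched on both strands of the 28 window peaks. The core consensus of CTCF, which sets the boundaries of domains within Hox clusters, was found in 0 of 28 peaks and in 4.34% of the list. The DR5 element, through which retinoic acid receptors act at Hox genes, was found in 0 of 28 and in 0.186% of the list. TGATNNAT, bound jointly by PBX and HOX proteins, was found in 1 of 28 (3.57%, list 3.04%), the peak of score 285 in *Hotairm1*. TGACAG was found in 3 of 28 (10.7%, list 15%) and AGATAA in 3 of 28 (10.7%, list 8.87%). All of these matches were in flank peaks and none of the 15 peaks inside the clusters held any of the 5 strings. A match is a description of letters in a 149 bp window, and with 28 peaks these shares cannot be distinguished from those of the list.

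Of 58 non-coding genes in the windows, 9 (15.5%, 7.35 to 27.4%) had a gained peak within 3 kb of a TSS, near the 11.9% of genes of other types than protein-coding in the genome. These were 5 of 22 long non-coding RNAs (*Halr1*, *Hotairm1*, Gm11536, Gm14396 and Gm28793), 3 of 20 short RNA models and 1 of 7 microRNAs. *Hotairm1* had 2 peaks, which were also those of the short RNA models Gm27867 and Gm27861. Gm14396 and Gm28793 shared the *Hoxd9* peak, and Gm11536 had the *Hoxb3* peak. The non-coding genes are thus not independent, and their interval is too narrow. *Halr1* had a peak of score 52 that lies beyond the flank. None of the 5 protein-coding neighbors had one. *Mir10a*, upstream of *Hoxb4*, was 1654 bp from the *Hoxb4* peak of score 235. Its paralog *Mir10b*, near *Hoxd4*, was 20797 bp from the nearest peak. The 5p mature microRNAs of both genes share a seed (bases 2 to 8, in capitals) and differ outside it (RefSeq, GRCm38.p6).
miR-10a-5p: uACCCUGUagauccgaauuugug
miR-10b-5p: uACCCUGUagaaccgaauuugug
The miR-196 genes within the Hoxa, Hoxb and Hoxc clusters, which target Hox transcripts, had no gained peak within 3 kb.

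Other homeobox genes of the ANTP class, to which Hox genes belong, gave a share close to that of Hox genes. The list used here is not the entire class, and it leaves out the Nkx genes among others. Of 43 such genes, 12 (27.9%, 15.3 to 43.7%) had a gained peak within 3 kb, against 51.2% of all protein-coding genes, and 34 of the 43 have a CpG-rich 5′ end. The counting intervals of both groups overlap for most of their length. The peaks of these genes had a median score of 204 and reached 441 at *Msx2*, a gene of the outflow tract cushions, and 386.5 at *Vax2*. At or above the list median, 8 of the 43 kept a peak (18.6%), against 2 of 38 Hox genes and 45.4% of protein-coding genes. At 10 kb, 18 of 43 (41.9%) had a peak, against 25 of 38 Hox genes and 59.6% of protein-coding genes. A difference between the Hox genes and these genes was not tested.

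Among 36 genes that act with or upon Hox genes, 30 (83.3%, 67.2 to 93.6%) had a gained peak within 3 kb, against the 51.2% of all protein-coding genes. In this list 24 of the 36 genes have a CpG-rich 5′ end, a class of which 79.1% had a gained peak. That share is not a like comparison for the whole list, and the list was not divided by CpG class. Of 8 PBC and MEIS cofactors, which form complexes with HOX proteins on DNA, 7 had one, with *Pknox1* at a score of 911.5, *Meis2* at 519 and *Meis1* at 361, and *Pbx4* had none. Of 16 trithorax and Polycomb genes, 14 had one. The catalytic Polycomb gene *Ezh2* had a score of 713.5, *Suz12* 836, *Rnf2* 916.5 and the trithorax gene *Kmt2a* 555.5, and *Cbx7* and *Eed* had none. Of 7 genes of retinoic acid signaling, 4 (57.1%, 18.4 to 90.1%) had one, and the interval contains the 51.2% of all protein-coding genes. They were *Rara*, *Rarb*, *Rarg* and the synthesizing enzyme gene *Aldh1a2*. The degrading enzyme genes *Cyp26a1*, *Cyp26b1* and *Cyp26c1* had none, and a contrast between synthesis and degradation was not tested. *Ctcf*, *Rad21*, *Gdf11*, *Kat6a* and *Tgif1* each had one. The lowest median score among these lists was 311.5, for retinoic acid signaling. The median was 136 for the peaks at Hox genes and 395 for all gained peaks within 3 kb of a protein-coding TSS. Single peaks in these lists scored as low as 45.5, below the lowest Hox peak at 77.

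The identity of the tissue cannot be read from differential peaks, and markers were recorded only as values beside the Hox counts and the 51.2% of all protein-coding genes. With 4 to 7 genes a list, each interval is wide. Of 7 cardiomyocyte genes, 6 had a gained peak, with *Actc1* at a score of 619.5 and *Tnnt2* at 599.5, and *Nkx2-5* had none within 3 kb. Of 5 endothelial genes 1 had one and of 5 blood genes 1. Lists were also taken for tissues next to the heart in which Hox genes are active. The counts were 3 of 5 for neural tube (*Neurog2*, *Pax6*, *Sox2*) and 1 of 4 for neural crest (*Ets1*). They were 3 of 4 for paraxial mesoderm (*Meox1*, *Tbx6*, *Tcf15*) and 3 of 4 for pharyngeal endoderm (*Foxa2*, *Pax9*, *Sox17*). These genes are not all particular to those tissues, as the authors describe *Sox17* as needed for endocardium development. *Meox1* is also counted among the other ANTP-class genes. Whether the tissues of these lists differed in amount between the pools was not tested.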

How the data were processed

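ATAC-seq libraries of both genotypes (2 each) were aligned by the authors to mm10 with BWA-MEM, peaks were called with HOMER 4.10.3 on combined libraries, a 2-fold cutoff was applied, and ChIP-Seeker 1.20.0 was used for annotation. Handling of duplicates, multiply placed reads and the Tn5 offset is not given in the sources used here, and each could change which peaks are listed. The deposited value (column 5, no header) was read as a signal, the pooled tags per peak, which no source used here states, with a step of 0.5 for gained and 0.1 for WT-enriched peaks. Distances were measured from the nearer peak edge to any GENCODE M21 TSS on 21 chromosomes, with Python 3.11.15, pandas 2.3.3 and scipy 1.17.1, and tested on simulated data. Peak percentiles, base composition and motif letters were computed from the peak sequences. All 38 genes are named with the distance or score of the nearest peak. Peaks with the highest and lowest score per cluster are given with coordinates, and the sequences printed were otherwise chosen after their values were seen. The members and gene lists were chosen with earlier results of these data known. Alternatives in distance, transcripts, score, flank, motif string and window were computed. Some genes of the regulator lists are not reported here and enter no count of those lists.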

Additional observations from a re-analysis of the deposited data

How the results depend on the processing

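Of 80 alternative counts, 54 stayed within 1.5 times the reported count. Using protein-coding or basic transcripts, the peak center or the nearest gene left 11 or 12 Hox genes with a peak. Within 10 kb the counts were 25 of 38 Hox genes, 8 of 10 in Hoxa, 5 of 9 in Hoxc and 8 of 9 in Hoxd. They were 14 of 22 in groups 1 to 8, 11 of 16 in groups 9 to 13 and 35 of 63 window neighbors of all types (55.6%). Of all protein-coding genes 59.6% had a peak at that distance. Within 1 kb 3 of 63 neighbors (4.76%) remained counted, beside 48.1% of protein-coding genes. With scores at or above the list median the counts were 2 Hox genes, 0 in Hoxa, 1 in Hoxb, 0 in Hoxc and 1 in Hoxd. They were 1 in groups 1 to 8, 1 in groups 9 to 13, 4 neighbors and 7 window peaks, and 45.4% of protein-coding genes had such a peak. Requiring 2 peaks gave 0 Hox genes. Groups 1 to 4 gave 4 genes and groups 5 to 13 gave 8. Counting CpG-rich genes alone, chosen after seeing the data, gave 6. Without flanks 15 window peaks were left. The median score was 127.5 inside the clusters and 135.75 within 3 kb of a Hox TSS, against 136.75 in the windows. A looser CTCF string matched 3 window peaks (list 12.7%), and peaks widened by 100 bp on each side gave 3 for the PBX-HOX (10.7%, list 7.91%), 7 for the MEIS (25%, list 27.8%) and 5 for the GATA letters (17.9%, list 16.9%). No paired analysis was possible because the deposited lists pool the libraries of a genotype, and no library could be left out for the same reason. Depth limits what the lists can show, because a weak site at a Hox gene may hold too few pooled tags to be called.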
